A study of Mus musculus with 6 samples.

Results

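DNA replication genes were followed in CCR6+ group 3 innate lymphoid cells (ILC3s) from mice with, by their labels, a deletion of the gene for RANKL and from control mice. The set held 55 genes of origin licensing, origin firing, DNA synthesis, nucleotide supply and entry into S phase. They were chosen by name from a list of replication factors, with earlier results of these data known. Their shares beside those of all genes are therefore descriptions and not tests. All 55 were measured, among 19938 genes on the arrays. The cells were sorted from the small intestinal lamina propria of adult C57BL/6 mice and profiled on Affymetrix whole-transcript arrays, 1 array per sample. The RANKL-deficient group (3 arrays) carried Cre together with Tnfsf11fl/fl, floxed alleles of the gene for RANKL. The control group was Tnfsf11fl/fl (3 arrays), which carried the same floxed alleles and for which no Cre is named, so Cre itself and the deletion cannot be told apart. The labels do not say whether the arrays of a group came from separate mice.

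Before S phase, the origin recognition complex (ORC) with CDC6 and CDT1 loads the ring-shaped MCM helicase onto DNA, which is called licensing. The kinase CDC7 with DBF4, and cyclin E with CDK2, then start the helicase, and CDC45 and the GINS complex join it. Polymerases copy the opened strands, and ribonucleotide reductase and thymidylate enzymes supply the building blocks. Many of these genes are transcribed together at the G1/S border by E2F factors, so their transcript level is widely read as a sign of cycling cells. In a bulk sample, a larger share of cycling cells and more of each transcript per cell cannot be told apart.

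All values are log2 expression values, and a difference is the RANKL-deficient mean minus the control mean on that scale. Errors are SDs over the 3 arrays of a group or SEs of the limma fit on all genes. The targeted gene Tnfsf11 measured 8.36, 8.65 and 8.52 on the RANKL-deficient arrays, against 8.76, 8.41 and 8.25 on the control arrays, with overlapping groups. Where its probes lie relative to the floxed exons was not known, so the labels could not be checked on it. The mean level of 12 markers of ILC3s ran from 10.13 to 10.32 on RANKL-deficient and from 10.07 to 10.10 on control arrays, with 8 of 12 higher. Of these, Cxcr5 had the smallest p (difference 0.85, SE 0.18, adjusted p = 0.377, groups without overlap), Lta differed by 0.36 and Ltb by −0.42. The sort marker Ccr6 averaged 9.45 in RANKL-deficient and 9.13 in control cells. The arrays had similar medians (5.07 to 5.15), but control arrays 1 and 2 had a narrower spread (SD 1.86 and 1.93 over genes) than the rest (1.99 to 2.01). Those arrays also correlated less with the others (mean r 0.960 and 0.970 across genes, against 0.975 to 0.977). Many of the replication genes whose difference moved by over 1.5 times without both are given without them too. That setting leaves control array 3 alone in its group, so it is not a cleaner comparison. The weights that limma gave control arrays 1, 2 and 3 were 0.45, 1.43 and 0.60.

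The MCM helicase genes Mcm2, Mcm3, Mcm4 and Mcm5 and a few partners (among them Rpa1, Prim1 and Uhrf1) had higher means in RANKL-deficient cells. The genes named here differed by 0.55 to 1.15 on the log2 scale. Of the 6 ORC genes 2 had a higher mean, near the share of all genes (39.5%), and neither cyclin E gene did. These genes are too few to show a contrast with the helicase genes. No replication gene passed the threshold after adjustment over all genes by limma (adjusted p from 0.377 to 0.990), where 0.00502% of all genes passed higher and 0% lower. At an unadjusted p under 0.05 (limma), 11 of the 55 genes (20%) were higher, against 4.25% of all genes. At the same threshold 1 of the 55 genes (1.82%) was lower, against 3.9% of all genes. All RANKL-deficient arrays lay above all control arrays for 10 of the 55 genes (18.2%), against 5.28% of all genes. The opposite order was seen for 2 genes (3.64%), against 9.08% of all genes. The mean was higher for 36 of the 55 genes (65.5%), against 39.5% of all genes, and the median difference was 0.13, against −0.054 over all genes.

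These counts moved with the arrays used and with the scaling. The number of replication genes higher at an unadjusted p under 0.05 was 5 without RANKL-deficient array 1, 7 without RANKL-deficient array 2, 5 without control array 1 and 6 without control array 2. The share of all genes at that threshold was 3.31%, 3.16%, 3.7% and 3.68% in those settings, in the same order. The number was 6 without control arrays 1 and 2 together, where 2.75% of all genes were higher at that threshold. After cyclic loess, which removes a trend with signal strength, 37 of the 55 genes had a higher mean, against 50% of all genes. When the weaker-signal genes (those at or under the median of the 6-array means) were left out, 28 of 38 replication genes had a higher mean, against 54.7% of all genes kept. After median centring, 39 of the 55 genes had a higher mean, against 49.5% of all genes. With the weaker-signal genes left out, 6 of the 38 replication genes were higher at an unadjusted p under 0.05, against 6.38% of all genes kept.

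**Figure D1:**
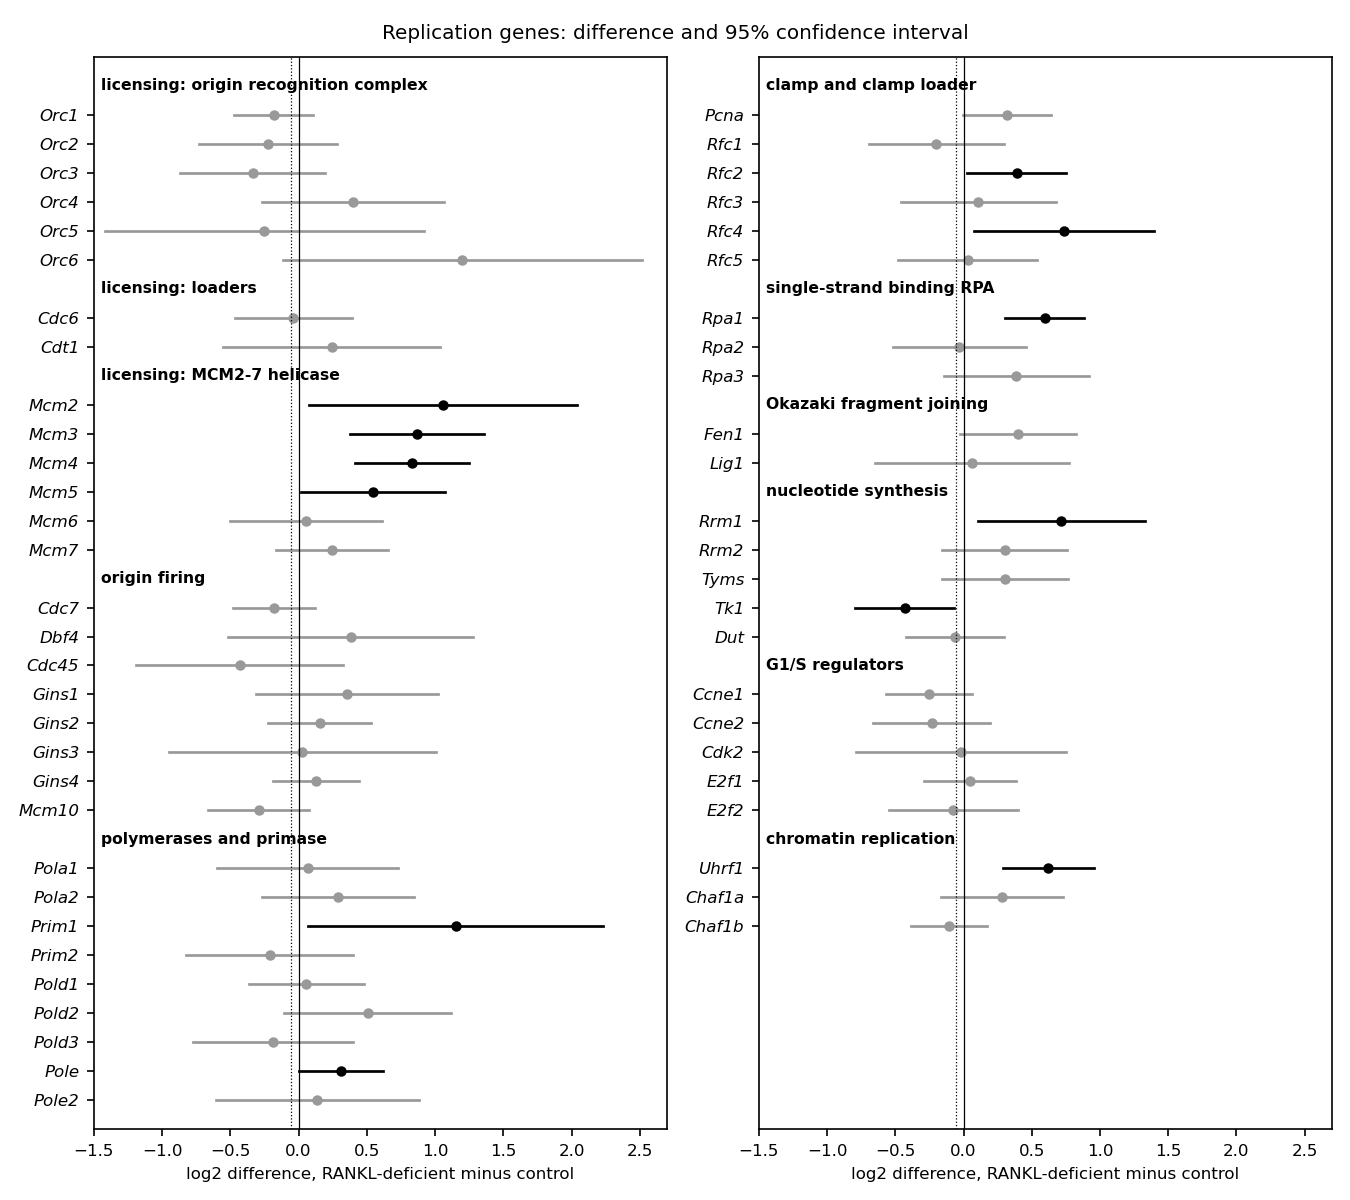
Log2 difference (RANKL-deficient minus control, x axis) of each of the 55 replication genes, in order of role, with its 95% confidence interval from limma. Black marks the 12 genes with an unadjusted p under 0.05, grey the others, and the dotted line is the median of all genes (−0.054). The black intervals gather in the MCM helicase (4 of 6 genes) and none lies in the ORC or among the G1/S regulators. Of all genes, 4.25% were higher and 3.9% lower at that threshold.

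The 6 MCM helicase genes had the highest median difference of the role groups, 0.69. Of the 6, 4 were higher at an unadjusted p under 0.05, against 4.25% of all genes. Their products form the ring that unwinds DNA at the fork. Mcm4 had values of 7.12, 7.42 and 7.30 in RANKL-deficient cells, against 6.15, 6.71 and 6.48 in control cells. The groups did not overlap, and the difference was 0.83 (SE 0.18, limma adjusted p = 0.377), a 1.78-fold higher mean. Mcm3 measured 6.20, 5.94 and 6.22 in RANKL-deficient cells, against 4.81, 5.49 and 5.45 in control cells. Its groups did not overlap either, and control array 1 was the lowest (difference 0.87, SE 0.21, adjusted p = 0.423).

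Mcm2 measured 6.93, 7.02 and 7.49 in RANKL-deficient cells, against 5.18, 6.17 and 6.92 in control cells. The control arrays spread over a wide range, and control array 3 (6.92) came just under the lowest RANKL-deficient array (6.93). Its difference of 1.06 (SE 0.42, adjusted p = 0.603) was 0.60 without control array 1 and 0.23 without control arrays 1 and 2. Mcm5 measured 6.37, 5.99 and 6.87 in RANKL-deficient cells, against 5.88, 5.96 and 5.75 in control cells. RANKL-deficient array 3 was the highest, and the difference of 0.55 (SE 0.22, adjusted p = 0.606) was 0.32 without it. Mcm6 measured 7.39, 7.82 and 7.12 in RANKL-deficient cells, against 7.19, 7.77 and 7.21 in control cells. These groups overlapped throughout. The difference of 0.054 (95% confidence interval −0.50 to 0.61) turned negative after quantile normalization, after cyclic loess and with array weights. Without control arrays 1 and 2 the difference of Mcm6 was 0.24, near that of Mcm2. Mcm7 measured 5.86, 5.91 and 6.01 in RANKL-deficient cells, against 5.34, 5.92 and 5.78 in control cells, a difference of 0.24 (95% confidence interval −0.17 to 0.66). Of the ring's 6 subunits, 4 therefore had all RANKL-deficient arrays above all control arrays (5.28% of all genes), and Mcm6 and Mcm7 did not.

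**Figure D2:**
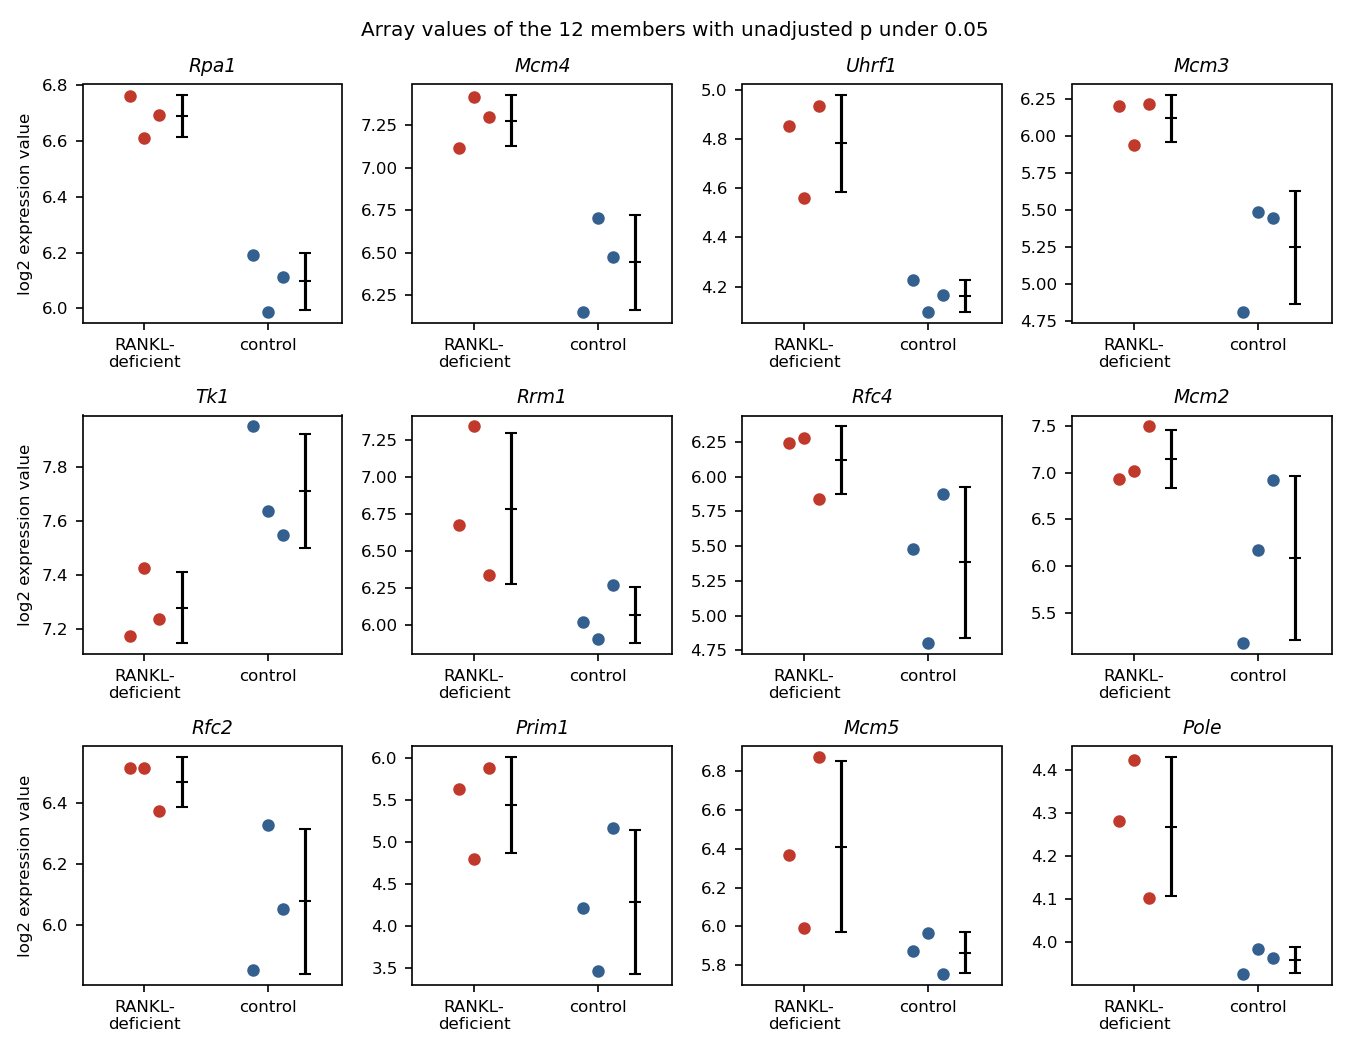
Log2 expression values (y axis, scaled per gene) of the 12 replication genes with an unadjusted p under 0.05, with RANKL-deficient arrays in red on the left and control arrays in blue on the right. The points of a group are arrays 1 to 3 from left to right, and the bar beside them is the mean with its SD. Tk1 is the 1 gene of the 12 with lower RANKL-deficient values, and control array 3 reaches the RANKL-deficient range for Rfc4 and Prim1.

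Promoters were read because E2F control is the property these genes are best known to share. RefSeq windows from 250 bases before to 50 bases after the start (GRCm38.p6) were found for 47 of the 55 genes. The E2F words TTTCCCGC, TTTCGCGC, TTTGCCGC and TTTGGCGC were searched on both strands. At least 1 word was present for 18 of the 47 genes (38.3%), against 543 of 15614 measured genes with a window (3.48%) and 2.26% of all windows. A word was present for 12 of 30 genes with a higher mean, for 6 of 17 with a lower mean, and for 3 of the 8 with a higher mean at an unadjusted p under 0.05. The windows of the replication genes held 24 words, of which 2 pairs overlapped each other and 1 word shared bases with a CCAAT box. The CCAAT box, a common promoter word bound by NF-Y, was searched on both strands as well and was present for 27 of the 47 genes (57.4%), against 41.7% of measured genes with a window. It was present for 19 of 30 genes with a higher mean, for 8 of 17 with a lower mean, and for 7 of the 8 with a higher mean at an unadjusted p under 0.05. No window was found for Mcm4, Pole and Rfc2, which were also higher at that threshold. A match is only a match of letters.

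The 200 bases before the start are shown for 4 MCM genes, which differ in E2F words and in response, and for Rpa1 and Uhrf1, which have the smallest p outside the MCM group. Capitals mark E2F words and CCAAT boxes on either strand (a CCAAT box on the other strand reads ATTGG). The stretches are chr6:88898781-88898980 (minus strand) for Mcm2, chr1:20820313-20820512 (minus strand) for Mcm3, chr8:75109309-75109508 (plus strand) for Mcm5, chr1:128359706-128359905 (minus strand) for Mcm6, chr11:75348384-75348583 (minus strand) for Rpa1 and chr17:56304113-56304312 (plus strand) for Uhrf1, which has 2 windows.
Mcm2: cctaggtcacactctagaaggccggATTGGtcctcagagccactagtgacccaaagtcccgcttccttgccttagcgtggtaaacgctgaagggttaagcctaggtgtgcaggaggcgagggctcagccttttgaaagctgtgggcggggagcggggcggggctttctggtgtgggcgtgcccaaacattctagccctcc
Mcm3: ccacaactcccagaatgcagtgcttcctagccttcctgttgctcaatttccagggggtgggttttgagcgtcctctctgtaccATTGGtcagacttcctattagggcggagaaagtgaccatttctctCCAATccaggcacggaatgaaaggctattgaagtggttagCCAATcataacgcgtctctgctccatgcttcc
Mcm5: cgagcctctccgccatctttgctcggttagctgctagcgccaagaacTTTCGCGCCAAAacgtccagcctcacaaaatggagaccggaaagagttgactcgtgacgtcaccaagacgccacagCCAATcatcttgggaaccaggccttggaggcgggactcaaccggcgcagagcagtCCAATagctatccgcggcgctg
Mcm6: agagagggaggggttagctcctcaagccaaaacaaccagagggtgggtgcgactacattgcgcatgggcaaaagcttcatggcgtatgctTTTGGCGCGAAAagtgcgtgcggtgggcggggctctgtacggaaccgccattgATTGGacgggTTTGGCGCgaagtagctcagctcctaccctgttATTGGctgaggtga
Rpa1: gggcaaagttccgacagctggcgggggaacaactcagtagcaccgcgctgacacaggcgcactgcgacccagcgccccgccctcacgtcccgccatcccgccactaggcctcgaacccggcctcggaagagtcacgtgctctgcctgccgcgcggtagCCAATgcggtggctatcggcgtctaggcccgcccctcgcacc
Uhrf1: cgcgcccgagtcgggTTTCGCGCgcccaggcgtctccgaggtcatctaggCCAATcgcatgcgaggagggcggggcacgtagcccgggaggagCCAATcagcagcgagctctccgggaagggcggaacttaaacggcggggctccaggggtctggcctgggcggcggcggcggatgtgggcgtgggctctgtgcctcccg
Mcm5 and Mcm6 each held an overlapping pair of E2F words on opposite strands, whose first bases lay 153 and 149 bases before the start in Mcm5 and 110 and 106 bases in Mcm6. Mcm6 held another word, 47 bases before the start. Mcm3 held its 2 words after the start, at bases 20 and 39, outside the stretch shown, and Mcm2 and Rpa1 held none in the window. The pair of words was thus present both in Mcm5, whose groups did not overlap, and in Mcm6, whose groups did.

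Of the 6 ORC genes, which recruit the helicase, 2 had a higher mean in RANKL-deficient cells, against 39.5% of all genes. Their median difference was −0.20, against −0.054 over all genes, and no gene had an unadjusted p under 0.05. Orc6, the smallest ORC subunit, measured 6.86, 7.68 and 5.51 in RANKL-deficient cells, against 6.02, 4.79 and 5.64 in control cells. It had the largest difference of all 55 genes, 1.20, but RANKL-deficient array 3 was below 2 of the control arrays, and the 95% confidence interval was −0.12 to 2.51 (adjusted p = 0.623). Its difference ranged from 0.70 without RANKL-deficient array 2 to 1.78 without RANKL-deficient array 3. Orc3 measured 7.89, 7.54 and 7.84 in RANKL-deficient cells, against 8.57, 7.84 and 7.87 in control cells. Its difference of −0.34 (SE 0.23) was −0.10 without control array 1, the highest of the 6 arrays, and −0.11 without control arrays 1 and 2. Orc1, Orc2 and Orc5 differed by −0.18, −0.22 and −0.25 and Orc4 by 0.40, all with overlapping groups.

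Of the loaders, Cdt1 measured 5.50, 5.25 and 6.52 in RANKL-deficient cells, against 5.58, 5.19 and 5.77 in control cells. RANKL-deficient array 3 stood above the other 5 arrays, and the difference of 0.24 (SE 0.34) was −0.14 without it. Cdc6 measured 4.12, 4.28 and 4.60 in RANKL-deficient cells, against 4.63, 4.19 and 4.29 in control cells. Its groups overlapped, and the sign of its difference (−0.04, SE 0.18) turned in 7 of 14 alternatives, 3 of them scalings.

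Of the genes of origin firing, 5 of 8 had a higher mean, against 39.5% of all genes. Their median difference was 0.077, against −0.054 over all genes. Mcm10, which helps to activate the helicase, measured 4.17, 4.21 and 3.88 in RANKL-deficient cells, against 4.54, 4.41 and 4.17 in control cells. Control array 3 alone reached the RANKL-deficient range, and the difference was −0.29 (SE 0.16, adjusted p = 0.671). It was −0.19 when RANKL-deficient array 3 was left out and −0.09 when control arrays 1 and 2 were. Cdc45, which travels with the helicase, measured 5.23, 5.29 and 5.73 in RANKL-deficient cells, against 5.11, 6.20 and 6.24 in control cells. Control array 1 was the lowest of the 6 arrays here, and the difference of −0.43 (SE 0.32) was −0.80 without it, −0.26 without control array 2, −0.24 without control array 3 and −0.82 without control arrays 1 and 2. The GINS subunits Gins1, Gins2, Gins3 and Gins4 differed by 0.35, 0.16, 0.03 and 0.13. Dbf4 and its kinase partner Cdc7 differed by 0.38 and −0.18. None of the 8 genes had an unadjusted p under 0.05, where 4.25% of all genes were higher and 3.9% lower.

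**Figure D3:**
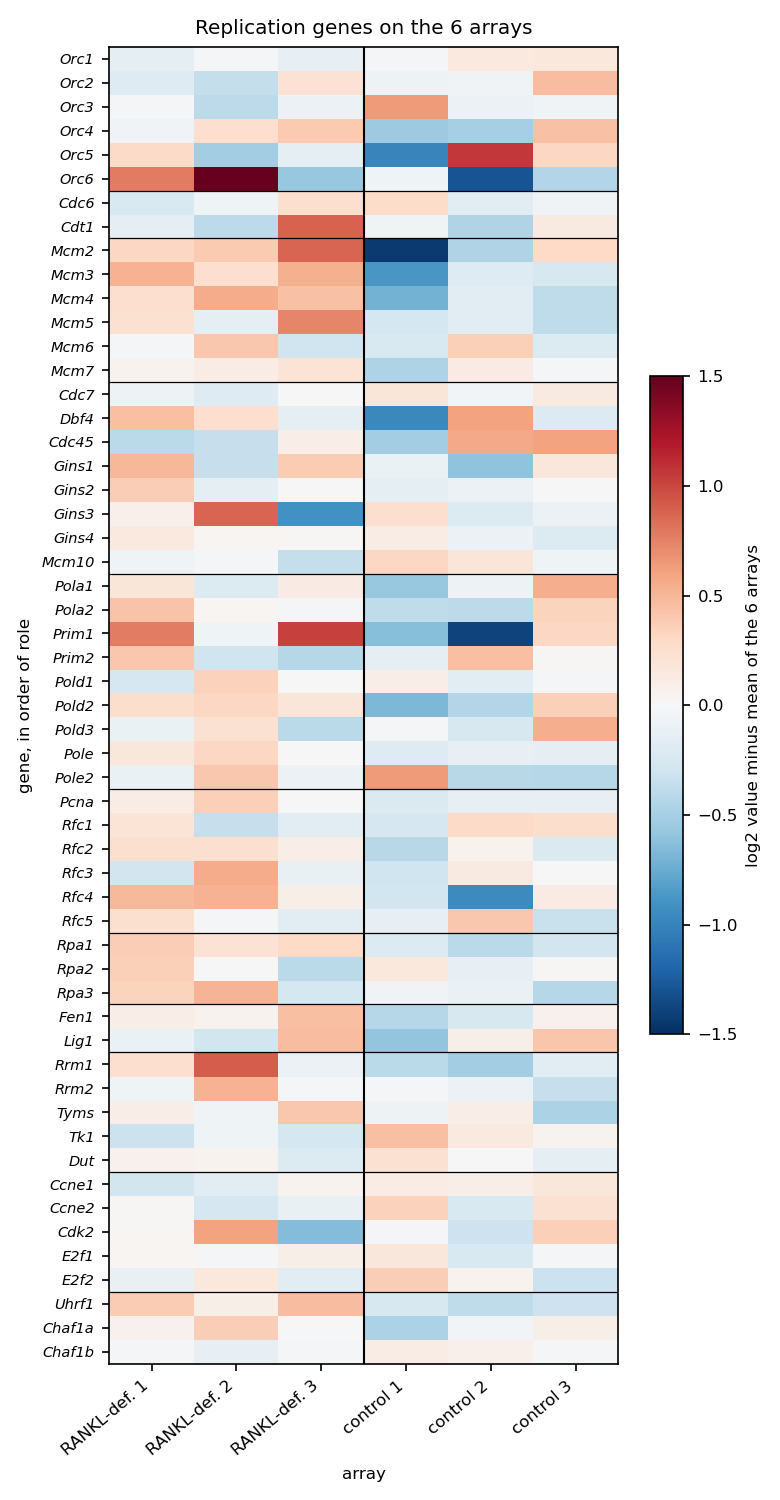
Log2 value minus the mean of the 6 arrays (colour, blue below and red above) for the 55 replication genes (rows, in order of role, lines between roles) on the 3 RANKL-deficient arrays (left) and the 3 control arrays (right). The MCM block is mostly red on the left and blue on control array 1, while Orc6 varies widely within both groups and Orc5 within the control group.

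Among polymerases and primase, 7 of 9 genes had a higher mean (39.5% of all genes) and the median difference was 0.14. Prim1, the catalytic subunit of the primase that makes RNA primers, measured 5.63, 4.79 and 5.88 in RANKL-deficient cells, against 4.22, 3.46 and 5.17 in control cells. Control array 3 lay above RANKL-deficient array 2, so the groups overlapped. The difference of 1.15 (SE 0.46, adjusted p = 0.603) was 0.74 without control array 2, was 1.59 without control array 3, and came down to 0.27 without control arrays 1 and 2. Prim2, the regulatory primase subunit, measured 5.63, 4.93 and 4.80 in RANKL-deficient cells, against 5.08, 5.67 and 5.24 in control cells, and its difference was −0.21 (SE 0.26). It was −0.47 without RANKL-deficient array 1, −0.12 without RANKL-deficient array 2, −0.05 without RANKL-deficient array 3, −0.34 without control array 1, −0.04 without control array 2 and −0.12 without control arrays 1 and 2.

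Pole, the catalytic subunit of leading-strand polymerase epsilon, measured 4.28, 4.42 and 4.10 in RANKL-deficient cells, against 3.93, 3.99 and 3.96 in control cells. The groups did not overlap (difference 0.31, SE 0.13, adjusted p = 0.608), and both means lay below the median of all genes (5.12). RMA does not mark which probes exceed background, so a fold of such a weak signal can understate the change. Pold2, an accessory subunit of lagging-strand polymerase delta, differed by 0.51 (95% confidence interval −0.11 to 1.12). Pold1 and Pold3 of the same enzyme differed by 0.06 and −0.19. Pola1, Pola2 and Pole2 differed by 0.07, 0.29 and 0.14.

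Of the sliding clamp and its loader, 5 of 6 genes had a higher mean (39.5% of all genes) and the median difference was 0.21. Rfc4, a small subunit of the clamp loader, measured 6.24, 6.27 and 5.84 in RANKL-deficient cells, against 5.48, 4.80 and 5.87 in control cells. Control array 3 was level with RANKL-deficient array 3, and control array 2 was the lowest. The difference of 0.74 (SE 0.28, adjusted p = 0.593) was 0.44 without control array 2 and 0.25 without control arrays 1 and 2. Rfc2, another small subunit, measured 6.51, 6.51 and 6.37 in RANKL-deficient cells, against 5.85, 6.33 and 6.05 in control cells. These groups did not overlap, by a narrow margin (difference 0.39, SE 0.15, adjusted p = 0.603). Rfc1, the large subunit, measured 7.81, 7.26 and 7.45 in RANKL-deficient cells, against 7.35, 7.90 and 7.87 in control cells, and its difference was −0.20 (SE 0.21). It was −0.35 without RANKL-deficient array 1, −0.075 without RANKL-deficient array 2, −0.38 without control array 1, −0.10 without control array 2, −0.12 without control array 3 and −0.36 without control arrays 1 and 2. Rfc3 and Rfc5 differed by 0.11 and 0.03. Pcna, the clamp itself, had non-overlapping groups (10.12 to 10.47 in RANKL-deficient cells and 9.90 to 9.99 in control cells). Its difference was 0.32 (95% confidence interval −0.01 to 0.64), and its other probe set gave 0.31.

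Rpa1, the large subunit of the protein that coats unwound DNA, had the smallest p of all 55 genes. It measured 6.76, 6.61 and 6.70 in RANKL-deficient cells, against 6.19, 5.99 and 6.11 in control cells. The groups were tight and well apart, with means of 6.69 ± 0.07 in RANKL-deficient and 6.10 ± 0.10 in control cells (difference 0.59, SE 0.12, adjusted p = 0.377, 1.51-fold). Its difference ranged only from 0.54 to 0.64 when 1 array was left out, and was 0.58 without control arrays 1 and 2. Rpa2, the middle subunit, measured 6.13, 5.77 and 5.37 in RANKL-deficient cells, against 5.93, 5.65 and 5.79 in control cells. Its groups overlapped and its difference of −0.03 (SE 0.21) turned positive after median centring and with array weights. Rpa3, the small subunit, differed by 0.39 (SE 0.22), and its other probe set gave 0.14.

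Fen1, the nuclease that trims Okazaki fragments, measured 5.78, 5.74 and 6.13 in RANKL-deficient cells, against 5.26, 5.45 and 5.76 in control cells. Only control array 3 reached the RANKL-deficient range (difference 0.40, SE 0.18, adjusted p = 0.618). The difference was 0.13 without control arrays 1 and 2. Lig1, the ligase that seals the fragments, measured 6.66, 6.47 and 7.22 in RANKL-deficient cells, against 6.16, 6.84 and 7.17 in control cells. The groups overlapped, and the difference of 0.06 (SE 0.30) turned negative after quantile normalization and with array weights.

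The 5 nucleotide enzymes had differences of both signs, with 3 higher means (39.5% of all genes) and a median of 0.30. Rrm1, the large subunit of ribonucleotide reductase, measured 6.68, 7.34 and 6.34 in RANKL-deficient cells, against 6.03, 5.91 and 6.28 in control cells. The groups did not overlap, RANKL-deficient array 2 was the highest, and the difference was 0.72 (SE 0.26, adjusted p = 0.587). It was 0.44 without RANKL-deficient array 2. Tk1, the salvage enzyme thymidine kinase, had the lowest difference of the 55 genes. It measured 7.17, 7.42 and 7.24 in RANKL-deficient cells, against 7.95, 7.64 and 7.55 in control cells, a difference of −0.43 (SE 0.15, adjusted p = 0.582). It was −0.27 without control arrays 1 and 2. Its other probe set read lower (means of 4.50 in RANKL-deficient and 4.77 in control cells), had overlapping groups and gave −0.27. The positions of the 2 probe sets were not known. It could therefore not be checked that the values given above come from Tk1 itself. Rrm2, the small reductase subunit whose level follows S phase, and Tyms, thymidylate synthase, both differed by 0.30 with overlapping groups. Dut, which clears dUTP, differed by −0.06.

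The regulators of the G1/S border had no higher gene with an unadjusted p under 0.05, against 4.25% of all genes. Of the 5 genes 4 had a lower mean and 1 a higher mean, against 39.5% of all genes with a higher mean. Ccne1, which encodes cyclin E1, measured 4.547, 4.666 and 4.884 in RANKL-deficient cells, against 4.941, 4.919 and 5.002 in control cells. The groups did not overlap, but the gap was small and the p missed the threshold (difference −0.25, SE 0.13, adjusted p = 0.658). Ccne2, Cdk2, E2f1 and E2f2 differed by −0.23, −0.02, 0.05 and −0.07. For E2f1, a main activator of replication genes, the 95% confidence interval ran from −0.29 to 0.39.

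Of the genes that copy chromatin with the DNA, Uhrf1, which guides maintenance methylation to new DNA, measured 4.85, 4.56 and 4.93 in RANKL-deficient cells, against 4.23, 4.10 and 4.16 in control cells. The groups did not overlap (difference 0.62, SE 0.14, adjusted p = 0.415), and both means lay below the median of all genes. Chaf1a and Chaf1b encode subunits of the histone chaperone CAF-1. Chaf1b measured 4.15, 4.04 and 4.15 in RANKL-deficient cells, against 4.28, 4.24 and 4.14 in control cells, a difference of −0.11 (SE 0.12) that was −0.03 without control arrays 1 and 2 and just above 0 after cyclic loess. Chaf1a differed by 0.28 with overlapping groups.

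**Figure D4:**
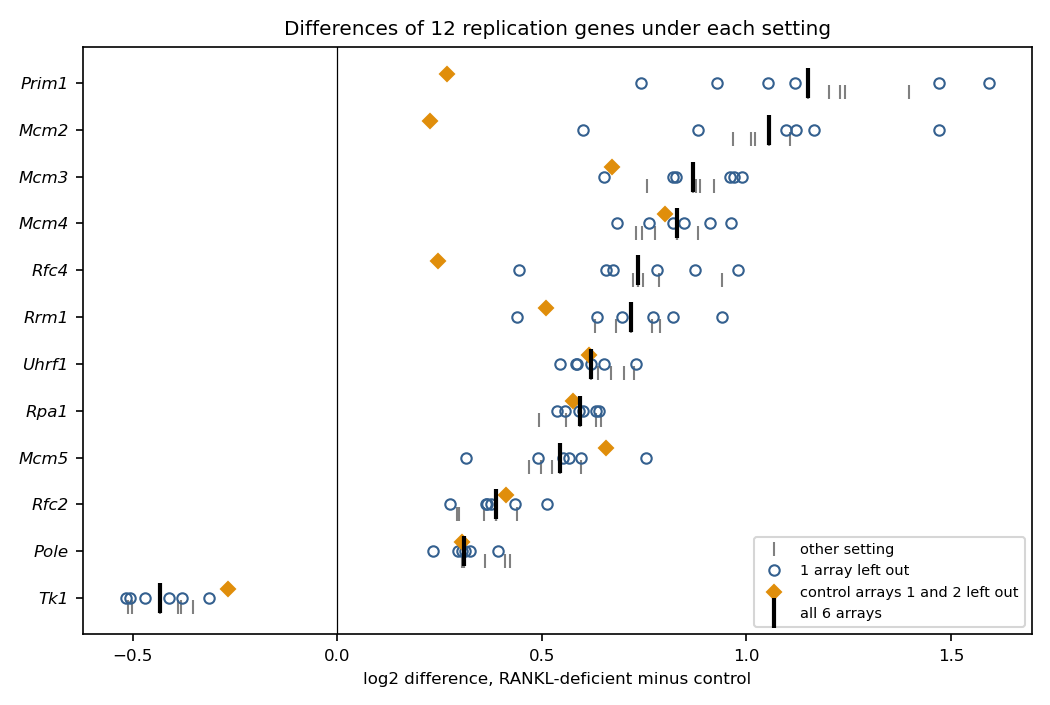
Log2 difference (x axis) of the 12 genes with an unadjusted p under 0.05 with all 6 arrays (black bar), with 1 array left out (open circles), with control arrays 1 and 2 left out (orange diamonds) and under other settings (grey ticks). Rpa1, Uhrf1, Mcm4 and Mcm3 stay between 0.49 and 0.99, while Mcm2, Prim1 and Rfc4 come down to 0.23 to 0.27 without control arrays 1 and 2. The orange values rest on control array 3 alone.

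Of the 12 genes, 4 kept an unadjusted p under 0.05 in every alternative that measured them. Mcm3, Mcm4 and Rpa1 had an unadjusted p under 0.05 (limma) in all 15 alternatives, and Uhrf1 in all 14 that measured it. Mcm2, Rfc4 and Tk1 (the lower gene) had one in 9 of 15 alternatives each, and Prim1 in 9 of 14. Rrm1 had one in 11 of 15, Pole in 6 of 14, Rfc2 in 5 of 15 and Mcm5 in 3 of 15. No alternative brought a named gene past the adjusted threshold, with a lowest adjusted p of 0.212, for Rpa1 without control array 3.

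The arrays contributed unequally. Control array 1 had the lowest value for 18 of the 55 genes, although it was the highest array for 33.4% of all genes and the lowest for 17.9%. It lay below all RANKL-deficient arrays for 26 replication genes, control array 2 for 24 and control array 3 for 19, against 24.2%, 23.9% and 25.6% of all genes. The median deviation of the 6 MCM genes from their 6-array mean was 0.24, 0.33 and 0.48 on the RANKL-deficient arrays, against −0.59, −0.16 and −0.22 on the control arrays. Over all 55 genes it was 0.095, 0.048 and −0.008 on the RANKL-deficient arrays, against −0.15, −0.10 and −0.019 on the control arrays. The median of the MCM genes was thus clearly negative on all 3 control arrays, and that of the whole set mainly on control arrays 1 and 2. This describes the median and not each gene, since the groups overlapped for Mcm6 and Mcm7.

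**Figure D5:**
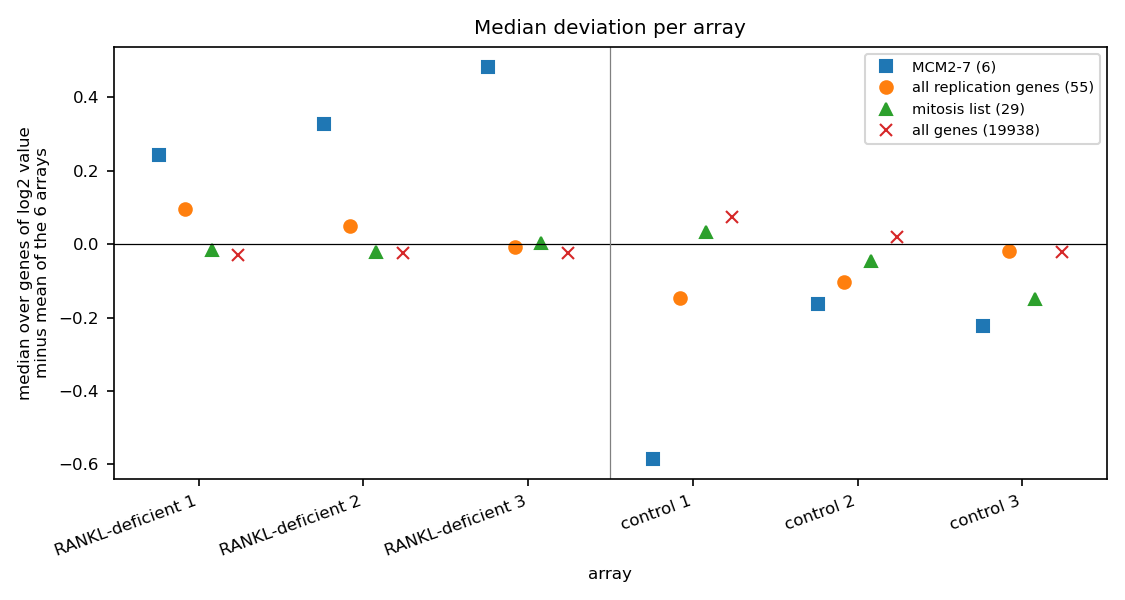
Median over genes of the log2 value minus the mean of the 6 arrays (y axis) on each array (x axis, RANKL-deficient on the left), for the 6 MCM helicase genes, all 55 replication genes, the 29 mitosis genes and all 19938 genes. The MCM median runs from 0.24 to 0.48 on RANKL-deficient arrays and from −0.59 to −0.16 on control arrays, with control array 1 the lowest, while the mitosis median stays between −0.15 and 0.03.

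Other genes of replication and the cycle were read from lists of names. Beside their counts, 39.5% of all genes had a higher mean, and 4.25% were higher and 3.9% lower at an unadjusted p under 0.05. Of 29 further fork and origin factors, 15 had a higher mean, 3 were higher and 0 lower at an unadjusted p under 0.05, 0 passed the adjusted threshold (limma), and the median difference was 0.10. Pold4, the smallest subunit of polymerase delta, had non-overlapping groups and differed by 0.77 (SE 0.17, adjusted p = 0.394). Rnaseh2b, a subunit of the enzyme that removes ribonucleotides from DNA, differed by 0.41, and Tipin, which protects the fork with TIMELESS, by 0.53.

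Of 36 further genes of nucleotide metabolism, 25 had a higher mean (39.5% of all genes), 7 were higher (4.25%) and 2 lower (3.9%) at an unadjusted p under 0.05, 0 passed the adjusted threshold (limma), and the median difference was 0.16. Cmpk1, a kinase that phosphorylates CMP and UMP, measured 9.36, 9.32 and 9.54 in RANKL-deficient cells, against 8.77, 8.97 and 8.92 in control cells. Its groups did not overlap (difference 0.52, SE 0.13, adjusted p = 0.423). Gmps, which makes GMP, and Ctps, which makes CTP, differed by 0.96 and 0.77, also with non-overlapping groups.

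Of 29 mitosis genes, 17 had a higher mean (39.5% of all genes), 4 were higher (4.25%) and 0 lower (3.9%) at an unadjusted p under 0.05, 0 passed the adjusted threshold (limma), and the median difference was 0.044, against −0.054 over all genes. All RANKL-deficient arrays lay above all control arrays for 5 of the 29 (5.28% of all genes) and below for 0 (9.08% of all genes). Stmn1, Top2a and Birc5 had the smallest p and differed by 1.33, 1.10 and 0.37. The median of the mitosis genes lay nearer to 0 than that of the MCM genes, the role group with the highest median. It also lay nearer to 0 than that of all 55 replication genes (0.13). These groups of genes were not tested against each other. Signals of the mitosis genes were also weaker. Their mean level was 4.33 to 4.41 on RANKL-deficient and 4.13 to 4.35 on control arrays, below the median of all genes (5.12). That of the MCM genes was 6.64 to 6.83 and 5.76 to 6.34. Weak signals can understate a change, so the mitosis median cannot be compared directly with that of the MCM genes or of all 55 genes.

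Markers of other cell types that the sort could hold were read in the same way, against 39.5% of all genes with a higher mean. The mean level of 8 T cell markers ran from 5.14 to 5.41 on RANKL-deficient and from 5.28 to 5.63 on control arrays, with 2 of 8 higher. Cd3g measured 5.26, 4.20 and 4.89 in RANKL-deficient cells, against 7.32, 6.93 and 5.82 in control cells, highest on control arrays 1 and 2 (difference −1.91, adjusted p = 0.408). Cd4, of T cells and also of some ILC3s, went the other way at 9.27, 9.19 and 9.50 in RANKL-deficient cells, against 8.19, 8.79 and 8.93 in control cells (difference 0.69, adjusted p = 0.523). For both genes the groups stood without overlap. The mean level of 7 ILC1 and NK markers ran from 3.99 to 4.21 on RANKL-deficient and from 4.18 to 4.57 on control arrays (1 of 7 higher). That of 8 stroma and endothelium markers ran from 5.91 to 5.99 on RANKL-deficient and from 6.10 to 6.23 on control arrays (1 of 8 higher), without overlap. The ranges of the 2 groups overlapped for the T cell and ILC1 and NK lists, and also for B cell and plasma cell (3 of 7 higher), ILC2 (1 of 5), macrophage and monocyte (3 of 6), dendritic cell (3 of 7), mast cell (0 of 5) and epithelium (2 of 9) markers. Of the B cell and plasma cell list, Xbp1 differed by 0.50 and Mzb1 by 0.34, both without overlap. Of the other lists, Ncr1 (ILC1 and NK) and Adgre1 (macrophage and monocyte) were lower at an unadjusted p under 0.05. Array values have no true zero, so no marker can be called absent. The part of these markers in the replication result was not tested.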

How the data were processed

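Expression was measured on 6 arrays, 3 RANKL-deficient and 3 control, grouped by sample title. The authors deposited log2 values of 35556 probe sets. Per the submitters' processing notes, the summary method was RMA and the software Affymetrix Expression Console. Neither its version nor a genome build is given in the sources used here. RMA gives arrays nearly the same distribution, so a shift of all genes would not be seen. The number of arrays limits the precision.

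Probe sets with 1 symbol (21789) were named through the platform annotation, updated by Entrez identifier (GRCm38.p6 RefSeq names). The probe set with the highest mean stood for each of 19938 genes, and no filter on low values was used. An item withheld from the text is not reported here. The test was limma's moderated test (limma 3.58.1, R 4.3.3, lmFit and eBayes), two-sided, Benjamini-Hochberg over all genes, threshold 0.05, after a check on simulated data. p-values measure the spread between these arrays, which may be technical. With 3 arrays against 3, an exact permutation test cannot go below 0.1, so none was run. The 15 alternatives covered arrays left out, a replicate block, scaling, a filter on weak signals, averaged probe sets and other variance settings.

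Array values are given for genes with an unadjusted p under 0.05 and, in each role group, those with the smallest p and the lowest difference, and the 3 smallest p of each further list are named. The genes and lists were chosen with earlier results of these data known.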

Additional observations from a re-analysis of the deposited data

How the results depend on the processing

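No replication gene passed the adjusted threshold by limma under any of the 15 alternatives, and the count of genes with a higher mean stayed within 1.5 times of 36, as did the sign of the median difference, from 0.053 without control arrays 1 and 2 to 0.20 among genes above the median. The median over all genes moved too, from −0.054 with all 6 arrays to 0.00059 without control arrays 1 and 2 and 0.033 among genes above the median. Without control arrays 1 and 2, 33 of the 55 genes had a higher mean, against 50.1% of all genes. Leaving out 1 array each, the genes higher at an unadjusted p under 0.05 numbered 5 to 12 and those lower 0 to 2. All genes past the adjusted threshold then numbered 0 to 1. Without control arrays 1 and 2, 6 genes were higher and 0 of all genes passed. Only 6 were higher among genes above the median, where 38 of the 55 were tested. With the mean of probe sets 0 were lower, since the probe sets of Tk1 differ. With trend and robust eBayes 0 were lower and 2 of all genes passed, and the cause was not tested. With the replicate block 0 of all genes passed and 8 replication genes were higher at an unadjusted p under 0.05. The labels do not say whether same-numbered arrays were paired. Deviations of same-numbered arrays correlated at −0.023, 0.050 and 0.027 over all genes, which cannot decide it for single genes.

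Of 383 values of the named genes under alternatives, 25 changed sign, in 6 genes with differences between −0.11 and 0.24, and the cause was not tested. Leaving out 1 array, Cdc6 ranged from −0.17 to 0.093, Cdt1 from −0.14 to 0.50, Mcm6 from −0.13 to 0.25, Rpa2 from −0.22 to 0.16 and Lig1 from −0.22 to 0.28. Without control arrays 1 and 2, Cdc6 gave 0.039, Cdt1 −0.012 and Lig1 −0.38. Quantile normalization gave 0.045 for Cdc6, −0.027 for Mcm6 and −0.033 for Lig1. Cyclic loess gave 0.072 for Cdc6, −0.014 for Mcm6 and 0.0032 for Chaf1b. Median centring gave 0.013 for Cdc6 and 0.019 for Rpa2. Array weights gave 0.039 for Cdc6, −0.072 for Mcm6, 0.023 for Rpa2 and −0.023 for Lig1. Weak signals limit the genes with means below the median of all genes, 15 of the 55 in both groups.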

Other observations

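Regulators above and around the replication genes did not share a direction. Of 24 genes of the RB and E2F network, 14 had a higher mean (39.5% of all genes), 3 were higher (4.25% of all genes) and 2 lower (3.9% of all genes) at an unadjusted p under 0.05, and 0 passed the adjusted threshold (limma). Lin54, a DNA-binding subunit of the complex that represses cell cycle genes in resting cells, measured 6.91, 6.47 and 6.46 in RANKL-deficient cells, against 7.30, 7.42 and 7.25 in control cells. The groups did not overlap (difference −0.71, SE 0.16, adjusted p = 0.415). E2f6, a repressor E2F, differed by −0.78 with overlapping groups. Myc, a driver of growth and nucleotide synthesis, had non-overlapping groups and differed by 0.87 (SE 0.31, adjusted p = 0.582).

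Of 14 genes of histone supply and chromatin copying, 10 had a higher mean (39.5% of all genes), 0 were higher (4.25% of all genes) and 1 lower (3.9% of all genes) at an unadjusted p under 0.05, and 0 passed the adjusted threshold (limma). The gene lower at that threshold was Hells, a chromatin remodeller that works with DNA methylation, at 6.62, 7.18 and 7.14 in RANKL-deficient cells, against 7.60, 7.40 and 7.71 in control cells (difference −0.59, SE 0.19, adjusted p = 0.531). Dnmt1, which keeps DNA methylation after replication and is guided by UHRF1, differed by 0.27 with overlapping groups. Rbbp7, a histone-binding protein, differed by −0.23 with non-overlapping groups.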
